A study of Sus scrofa with 32 samples.

Results

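The genes described here were the fibroblast growth factors FGF1, FGF2, FGF7, FGF9, FGF10 and FGF18 and the receptors FGFR1, FGFR2, FGFR3 and FGFR4, chosen by gene symbol and matched to the NCBI gene IDs of the count tables. They were 10 of 30185 annotated genes, 6 ligands and 4 receptors. The authors' filter on low counts kept 8 of the 10 in luminal epithelium (LE), 7 in glandular epithelium (GE), 5 in blood vessels (BV) and 7 in stroma (S). FGF2, FGF7, FGF10 and FGFR1 were kept in all 4 compartments, and FGF18 in none.

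The endometrium, the inner lining of the uterus, was collected on Day 14 from 4 cyclic and 4 pregnant gilts (young female pigs). All animals were prepuberal gilts synchronized with eCG followed by hCG. Pregnant gilts were inseminated with semen and cyclic gilts with sperm-free supernatant from the same boar. LE, GE, BV and S were cut from frozen sections by laser capture microdissection, which gave 1 low-input RNA-seq library per gilt and compartment. Gilts are named by C (cyclic) or P (pregnant) and the number in the labels, and GE of gilt P41 was not analysed here. Pregnant samples came from the hyperemic zones where conceptuses had attached, so that pregnancy and the choice of site cannot be told apart. The 31 libraries held 2415216 to 7081556 counts each. Levels below are counts per 1000000 counts of the library (CPM), scaled across all libraries by the TMM method of edgeR, and are given per kilobase (kb) of annotated exon wherever 2 genes are set side by side. The 2 groups were compared within each compartment by the quasi-likelihood test of edgeR, with Benjamini-Hochberg adjustment over all its genes. A difference was called in LE at an adjusted p under 0.01, and elsewhere at an unadjusted p of at most 3.28e-04, the highest one among the LE calls. Compartments were compared in a joint fit of all libraries, at an adjusted p under 0.01. Each such difference is the mean of the difference in cyclic and that in pregnant gilts.

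Fibroblast growth factors bind receptor tyrosine kinases together with heparan sulfate, and the receptors signal mainly through the RAS-MAPK cascade. FGF7 and FGF10 are known as factors made by mesenchyme that act on the epithelial splice form of FGFR2, whereas FGF9, FGF18 and FGF2 act mainly on mesenchymal forms of the receptors, and FGF1 binds all of them. The uterus of the pig is unusual in that FGF7, elsewhere a stromal factor, is known to be made by the luminal epithelium around the time of implantation. Counts here were per gene, so that splice forms of the receptors were not separated.

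The captured compartments were checked with marker genes. The summed level of 10 epithelial markers was 2523 to 3480 CPM in LE and 1788 to 2175 CPM in GE, and FOXA2, a transcription factor of uterine glands, was at 65.5 to 94.7 CPM in GE and at most 22.8 CPM elsewhere. The 8 fibroblast markers summed to 37170 to 106700 CPM in S and overlapped with BV, at 25280 to 91430 CPM. The 8 endothelial markers summed to 1556 to 3080 CPM in BV and overlapped with S, at 557 to 2858 CPM. Stromal transcripts were also present in LE, with 4141 to 16670 CPM of fibroblast markers. In GE, gilt C128 was below all other cyclic gilts for 7 of the 10 genes and above them for 1. Among the 7 were FGF1, FGF18 and FGFR4, which held at most 5 counts in any cyclic GE library. How often other gilts or other genes give such a count was not tested. Elsewhere it was below them for 4 genes and above them for 3 in S, and below for 3 and above for 1 in each of LE and BV.

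**Figure D1:**
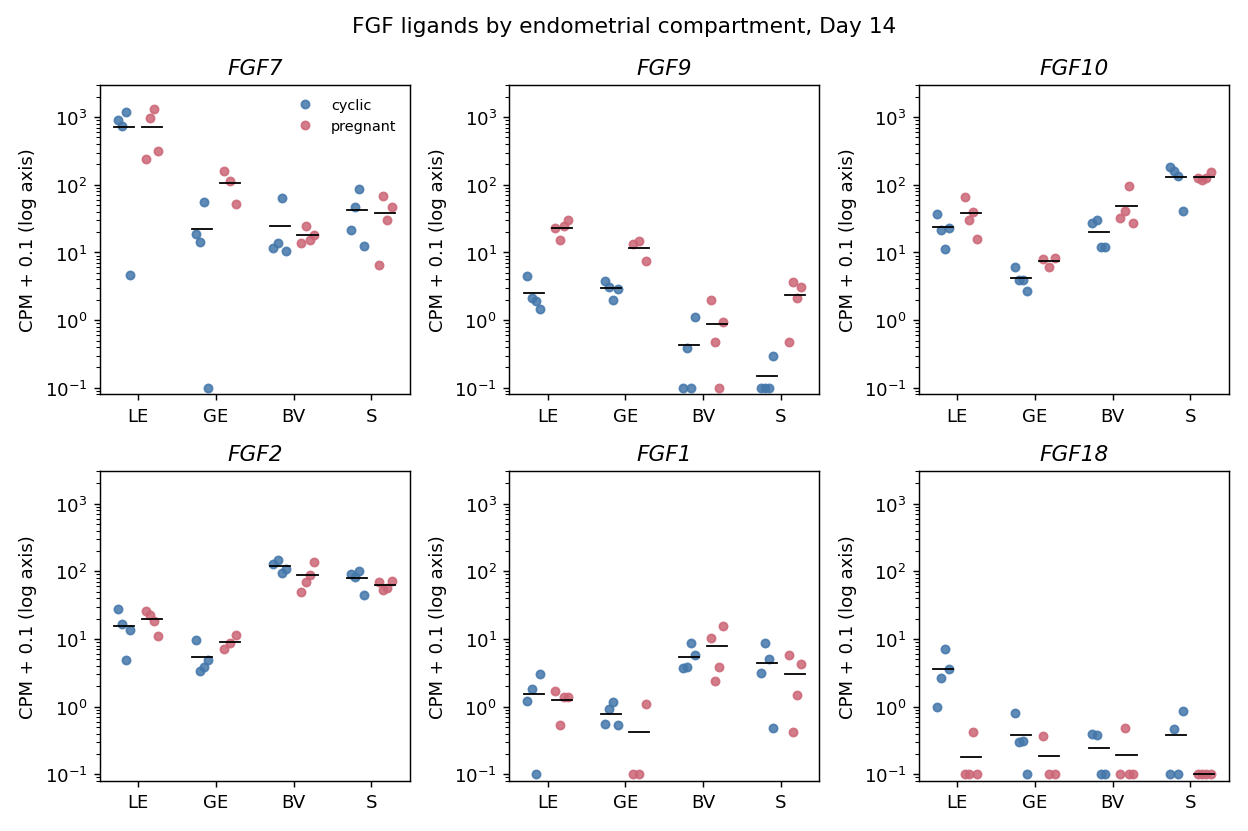
Level of the 6 ligands in each library (points, CPM + 0.1 on a log axis) by compartment and group, with the group mean as a line. FGF7 reached 1335 CPM in LE, FGF9 was higher in all pregnant than in all cyclic LE and GE libraries, and FGF10 and FGF2 were at their highest outside the epithelia.

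FGF7, the keratinocyte growth factor (gene 397281, Sscrofa11.1 chr1:122215878-122278705, minus strand), was the most abundant of the ligands in LE per kb of exon (325 CPM per kb in cyclic and 329 CPM per kb in pregnant gilts). Cyclic LE held 901, 739, 1175 and 4.55 CPM in gilts C40, C42, C78 and C128, and pregnant LE held 243, 956, 1335 and 317 CPM in gilts P39, P41, P43 and P139. The groups overlapped, and the low value of gilt C128 lay far below every other LE library. The difference between pregnant and cyclic LE was 0.00 on the log2 scale (SE 1.07, edgeR quasi-likelihood test, adjusted p = 0.999). Without gilt C128, it was -0.41 (edgeR, adjusted p = 0.689).

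Across compartments, FGF7 was 12.5-fold higher in LE than in GE, 28.3-fold higher than in BV and 14.9-fold higher than in S. These log2 differences were 3.65 (SE 0.64, adjusted p = 6.86e-05), 4.82 (SE 0.65, adjusted p = 2.08e-06) and 3.90 (SE 0.61, adjusted p = 1.43e-05) in the joint edgeR fit with gilt as a block, and each remained called when any 1 gilt was left out. S held 5.91% of the LE level in cyclic and 5.35% in pregnant gilts. The levels of FGF7 in GE, BV and S were not separated beyond their spread, apart from GE above BV without gilt C128 (log2 difference 1.57, edgeR, adjusted p = 0.00344).

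In GE, FGF7 was at 18.9, 13.9, 55.5 and 0 CPM in gilts C40, C42, C78 and C128 and at 160, 113 and 51.2 CPM in gilts P39, P43 and P139. The pregnant libraries were higher except that gilt P139 lay below gilt C78, and no count was found in gilt C128. The log2 fold change was 2.26 (SE 1.04) and was not called (edgeR quasi-likelihood test, adjusted p = 0.240), but the robust GLM of edgeR called it at 2.70 (adjusted p = 0.0157). Without gilt C128 it was 1.85 (edgeR, adjusted p = 0.128). The mean level in GE was 3.13% of that in LE in cyclic and 15.2% in pregnant gilts. The marker lists hold no marker particular to LE, and the part of LE cells in GE captures was not tested.

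FGF9 (gene 396717, chr11:1554648-1581938, plus strand), a factor known for signalling from epithelium to mesenchyme, was the member that rose in pregnant LE. Cyclic LE held 4.37, 1.997, 1.82 and 1.34 CPM in gilts C40, C42, C78 and C128, and pregnant LE 23.2, 15.0, 24.7 and 30.1 CPM in gilts P39, P41, P43 and P139. All pregnant libraries were above all cyclic ones, with 40 counts over the cyclic and 372 over the pregnant group. FGF9 was 9.62-fold higher in pregnant LE (log2 fold change 3.27, SE 0.40, edgeR quasi-likelihood test, adjusted p = 0.00208). Without gilt C42 the fold change was 3.19 on the log2 scale, with an adjusted p of 0.0108 that missed the limit of 0.01 (edgeR), and it remained called without each of the other LE libraries.

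The GE libraries showed the same direction. FGF9 was at 3.69, 3.03, 1.91 and 2.81 CPM in gilts C40, C42, C78 and C128 and at 13.1, 14.6 and 7.28 CPM in gilts P39, P43 and P139. The groups did not overlap. The log2 fold change was 2.01 (SE 0.35, edgeR quasi-likelihood test, adjusted p = 0.0451), and its unadjusted p of 4.68e-04 was just above the limit of 3.28e-04 set by the LE calls. It passed that limit without gilt P139 (log2 fold change 2.27, unadjusted p = 2.25e-04, edgeR). The robust GLM of edgeR (adjusted p = 9.42e-05) and DESeq2 (adjusted p = 2.17e-04) called it. The effects of pregnancy in LE and GE were not shown to differ (log2 difference 1.29, SE 0.78, edgeR joint fit, adjusted p = 0.439). Beside this, the 8 leukocyte markers summed to 50.2 to 73.9 CPM in cyclic and 98.5 to 139.1 CPM in pregnant GE, and their part in the result was not tested.

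FGF9 was low outside the epithelia. It was 13.9-fold higher in LE than in BV and 15.8-fold higher than in S (log2 differences 3.80 and 3.98, edgeR joint fit, adjusted p = 2.43e-06 and 2.37e-06), and LE and GE were not separated (log2 difference 0.38, adjusted p = 0.430). In S, which the filter excluded for this gene, 1 count was found over the 4 cyclic and 31 counts over the 4 pregnant libraries. The pooled ratio was 39.9 (95% interval 6.65 to 1630, counting error only), while the unfiltered edgeR fit gave an adjusted p of 0.123. The mean FGF9 level in S was 2.03% of that in LE in cyclic and 9.75% in pregnant gilts, and the summed epithelial markers in S were at 3.06% and 9.08% of LE in the same groups (11.3 to 195 CPM in cyclic and 40.2 to 510.3 CPM in pregnant S). Set against GE instead, FGF9 in S was at 1.69% in cyclic and 19.4% in pregnant gilts, and the epithelial markers at 5.03% and 12.7%. The part of epithelial RNA in the S value was not tested.

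FGF18 (gene 100525013, chr16:52724867-52760246, minus strand), a ligand known for its action on mesenchymal cells, was too low for the filter in every compartment. In LE, 4, 9, 31 and 13 counts were found in gilts C40, C42, C78 and C128, against 0, 0, 1 and 0 in gilts P39, P41, P43 and P139. These were 0.874, 2.57, 7.05 and 3.48 CPM in cyclic libraries and at most 0.320 CPM in pregnant ones. Every cyclic library was above every pregnant library, and the direction was opposite to that of FGF9. The pooled cyclic level was 62.1 times the pregnant level (95% interval 10.7 to 2490, counting error only). With the filter left off, the edgeR quasi-likelihood test gave an adjusted p of 0.0134, which missed the limit of 0.01. In GE, BV and S, the groups held 5 counts or fewer of FGF18, and no difference was detectable at this depth.

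The 250 bases upstream of the annotated start are shown for the ligand that rose in pregnant LE (FGF9), for the ligand seen almost only in cyclic LE among the LE libraries (FGF18) and for the most abundant ligand of LE (FGF7). They were read from the Sscrofa11.1 genome with the RefSeq annotation and are written 5′ to 3′ on the strand of the gene. Capitals mark the motifs that were found. In FGF9 (chr11:1554398-1554647, plus strand) these are single cores of the estrogen response element (GGTCA on either strand), in FGF18 (chr16:52760247-52760496, minus strand) GC boxes (GGGCGG on either strand) and in FGF7 (chr1:122278706-122278955, minus strand) TATA boxes (TATAAA on either strand).
FGF9: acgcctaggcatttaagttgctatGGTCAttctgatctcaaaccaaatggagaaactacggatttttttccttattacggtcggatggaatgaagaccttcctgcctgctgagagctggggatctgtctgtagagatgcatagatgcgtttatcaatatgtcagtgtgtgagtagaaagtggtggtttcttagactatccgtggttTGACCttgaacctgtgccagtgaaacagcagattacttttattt
FGF18: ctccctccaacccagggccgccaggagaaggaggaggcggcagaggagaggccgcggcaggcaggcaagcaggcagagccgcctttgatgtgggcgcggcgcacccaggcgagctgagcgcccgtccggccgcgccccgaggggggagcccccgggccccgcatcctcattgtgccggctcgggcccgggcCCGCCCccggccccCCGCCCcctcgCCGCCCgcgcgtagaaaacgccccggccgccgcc
FGF7: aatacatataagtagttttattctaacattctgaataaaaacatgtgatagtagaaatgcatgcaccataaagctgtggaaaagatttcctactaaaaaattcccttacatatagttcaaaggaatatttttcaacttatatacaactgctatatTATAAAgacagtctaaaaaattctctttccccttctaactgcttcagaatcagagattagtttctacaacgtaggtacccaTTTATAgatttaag
FGF9 held 2 such cores, at positions -226 and -44 from the annotated start, and 33.8% of the 27096 windows of this length in the annotation held at least 1. FGF18 held 3 GC boxes at -59, -45 and -34 (39.3% of windows held 1 or more), and its window had a GC content of 79.6%. FGF7 held 2 TATA boxes at -95 and -14 (10.7% of windows), with a GC content of 28.8%. The full estrogen response element (GGTCANNNTGACC), the AP-1 site (TGANTCA), the cAMP response element (TGACGTCA), the STAT site (TTCNNNGAA) and the E-box (CACGTG) were searched on both strands and not found in these 3 windows. The full element holds a core on each strand. These matches describe the letters of the windows only, and the annotated FGF9 transcript spans just 819 bases of exon, so that its start may lie inside the gene.

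FGF10 (gene 100525086, chr16:28695465-28779953, minus strand), like FGF7 a ligand of the epithelial form of FGFR2, had its highest level in S. Cyclic S held 183, 161, 134 and 41.4 CPM in gilts C40, C42, C78 and C128, and pregnant S 127.9, 119, 125 and 155 CPM in gilts P39, P41, P43 and P139. With gilt C128 set aside, gilts P39, P41 and P43 lay below every cyclic library, and only gilt P139 lay within the cyclic range. FGF10 was 4.46-fold higher in S than in LE, 4.29-fold higher than in BV and 23.9-fold higher than in GE (log2 differences of -2.16 for LE minus S, -2.10 for BV minus S and -4.58 for GE minus S, edgeR joint fit, adjusted p = 1.27e-06, 4.70e-05 and 3.89e-10).

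LE and BV were not separated for FGF10 (log2 difference -0.06, SE 0.28, edgeR joint fit, adjusted p = 0.873), and both were above GE. LE held 18.0% of the S level of FGF10 in cyclic and 28.7% in pregnant gilts, while the fibroblast markers in LE were at 13.9% and 18.3% of S, and the part of stromal RNA in the LE value was not tested. In BV, FGF10 was at 27.0, 30.4, 11.9 and 11.8 CPM in gilts C40, C42, C78 and C128 and at 31.8, 40.99, 94.99 and 27.1 CPM in gilts P39, P41, P43 and P139. Pregnant gilt P43 was the highest and the groups overlapped. The log2 fold change of 1.26 (SE 0.46) was not called (edgeR quasi-likelihood test, adjusted p = 0.107). In GE and LE it was 0.84 (SE 0.35, adjusted p = 0.199) and 0.71 (SE 0.45, adjusted p = 0.350) in the same test, and in S 0.03 (SE 0.37, adjusted p = 0.980). Without gilt C128 the S value was -0.27 (edgeR, adjusted p = 0.490).

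FGF2 (gene 397643, chr8:101278877-101344084, minus strand), the basic fibroblast growth factor known for its action on vessels, was highest in BV. Cyclic BV held 130, 145, 94.8 and 107 CPM in gilts C40, C42, C78 and C128, and pregnant BV 50.0, 70.5, 88.3 and 139.1 CPM in gilts P39, P41, P43 and P139. In S, it was 44.3 to 102 CPM in cyclic and 52.1 to 72.0 CPM in pregnant gilts. BV and S were not separated (log2 difference 0.50, SE 0.25, edgeR joint fit, adjusted p = 0.192). BV was 5.90-fold above LE and 15.0-fold above GE, and LE was 2.54-fold above GE (adjusted p = 6.27e-08, 7.96e-10 and 6.99e-04 in the edgeR joint fit). LE held 19.6% and 31.1% of the S level of FGF2 in cyclic and pregnant gilts, beside the fibroblast marker shares of 13.9% and 18.3%. Within compartments, no effect of pregnancy on FGF2 was called, with log2 fold changes of 0.33 (LE, SE 0.46), 0.74 (GE, SE 0.42), -0.44 (BV, SE 0.28) and -0.35 (S, SE 0.24). Without gilt C128 the S value was -0.55 (edgeR, unadjusted p = 0.00743), again not called. In BV the 8 smooth muscle markers summed to 5516 to 17520 CPM in cyclic and 921 to 6840 CPM in pregnant gilts, and their part in the BV values was not tested.

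FGF1 (gene 397497, chr2:144133846-144241345, minus strand), the acidic fibroblast growth factor, was a low transcript, at 2.30 to 15.2 CPM in BV and 0.328 to 8.75 CPM in S. BV and S were not separated (log2 difference 0.97, SE 0.49, edgeR joint fit, adjusted p = 0.210). BV was above LE and GE, by 4.65-fold and 13.8-fold (edgeR joint fit, adjusted p = 0.00130 and 2.02e-05). S was 7.04-fold above GE (adjusted p = 6.15e-04) and, only without gilt C128, above LE (edgeR joint fit, adjusted p = 0.00510, against 0.0592 with it). Pregnant and cyclic gilts did not differ detectably, with log2 fold changes of 0.57 (SE 0.57) in BV and -0.51 (SE 0.86) in S. The S value was -0.92 without gilt C128 and 0.05 without gilt C42.

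**Figure D2:**
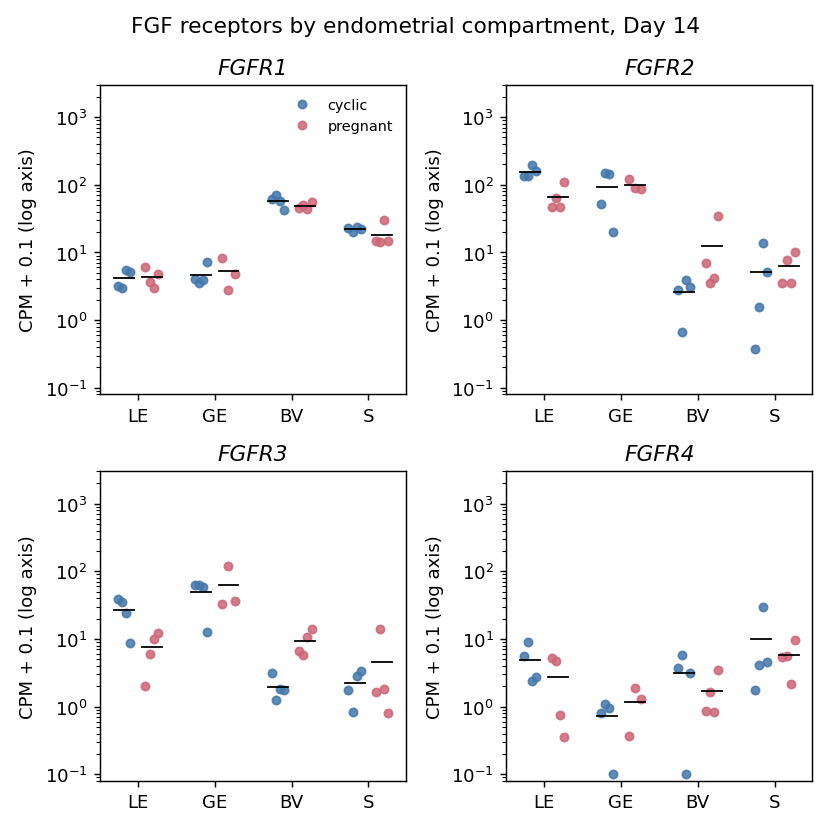
Level of the 4 receptors in each library (points, CPM + 0.1 on a log axis) by compartment and group, with the group mean as a line. FGFR1 was highest in BV, FGFR2 in LE and GE and FGFR3 in GE, and in pregnant LE all FGFR2 values were below the cyclic ones.

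Among the receptors, FGFR1 (gene 100153248, chr15:48053895-48106634, plus strand), the main receptor of mesenchymal cells, was highest in BV. It was at 60.5, 71.3, 57.4 and 42.7 CPM in BV of gilts C40, C42, C78 and C128 and at 45.9, 50.2, 43.4 and 55.4 CPM in gilts P39, P41, P43 and P139. The groups overlapped. S came next, with 19.7 to 23.5 CPM in cyclic and 14.1 to 29.97 CPM in pregnant gilts, and LE and GE held 2.69 to 8.12 CPM in both groups. FGFR1 was 2.67-fold higher in BV than in S, 12.8-fold higher than in LE and 11.3-fold higher than in GE (edgeR joint fit, adjusted p = 1.15e-04, 1.45e-10 and 2.06e-10). LE and GE were not separated (log2 difference -0.18, SE 0.26, edgeR joint fit, adjusted p = 0.577). LE held 18.7% and 23.4% of the S level in cyclic and pregnant gilts. No effect of pregnancy was called in any compartment, and the log2 fold changes were between -0.27 (SE 0.26, in S) and 0.17 (SE 0.45, in GE).

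FGFR2 (gene 396762, chr14:131183095-131285001, minus strand), whose epithelial form binds FGF7 and FGF10, made up most of the receptor level per kb of exon in both epithelia. Cyclic LE held 134, 133, 196 and 162 CPM in gilts C40, C42, C78 and C128, and pregnant LE 46.1, 63.7, 46.7 and 110.3 CPM in gilts P39, P41, P43 and P139. All pregnant libraries were below all cyclic ones, with gilt P139 the nearest to them. The log2 fold change was -1.21 (SE 0.31, edgeR quasi-likelihood test, adjusted p = 0.0382), which did not reach the limit of 0.01. It was called by the robust GLM of edgeR (log2 fold change -1.40, adjusted p = 2.62e-05), by DESeq2 (adjusted p = 0.00282) and, in the quasi-likelihood test, without gilt P139 (log2 fold change -1.59, adjusted p = 0.00842).

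Beside the LE values, the epithelial markers summed to 2949 to 3480 CPM in cyclic and 2523 to 2811 CPM in pregnant LE, and the smooth muscle markers to 196 to 446 CPM and 149 to 187 CPM. Their part in the results was not tested, and in bulk captures fewer cells of a type and less RNA per cell cannot be told apart. In GE, FGFR2 was at 51.9, 151, 145 and 19.7 CPM in gilts C40, C42, C78 and C128 and at 122, 90.2 and 86.0 CPM in gilts P39, P43 and P139. The pregnant values lay within the cyclic range, and the log2 fold change was 0.09 (SE 0.62, edgeR quasi-likelihood test, adjusted p = 0.949). Without gilt C128 it was -0.25 (edgeR, adjusted p = 0.748). The effects in LE and GE were not shown to differ (log2 difference -1.72, SE 0.82, edgeR joint fit, adjusted p = 0.299).

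FGFR2 was 20.7-fold higher in LE than in BV and 19.6-fold higher than in S (edgeR joint fit, adjusted p = 1.14e-07 and 9.69e-08), and LE and GE were not separated (log2 difference 0.11, SE 0.41, adjusted p = 0.843). BV and S were not separated either (adjusted p = 0.945). In BV it was at 0.568 to 3.82 CPM in cyclic and 3.45 to 34.3 CPM in pregnant gilts, the highest in gilt P139, and was left out of the filtered table.

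FGFR3 (gene 100514115, chr8:879151-894968, plus strand), a receptor of FGF9 and FGF18 among others, was highest in GE. Cyclic GE held 62.7, 63.0, 59.1 and 12.5 CPM in gilts C40, C42, C78 and C128, and pregnant GE 32.5, 119 and 36.6 CPM in gilts P39, P43 and P139. Gilt C128 was the lowest and gilt P43 the highest, and the log2 fold change was 0.33 (SE 0.63, edgeR quasi-likelihood test, adjusted p = 0.798). Without gilt C128 it was 0.00 (edgeR, adjusted p = 0.998), and without gilt P43 -0.54. GE was 4.09-fold above LE, 12.9-fold above BV and 17.5-fold above S (edgeR joint fit, adjusted p = 4.04e-04, 1.07e-06 and 3.76e-07).

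In LE, FGFR3 was at 38.9, 35.7, 23.9 and 8.56 CPM in gilts C40, C42, C78 and C128 and at 1.91, 5.86, 9.92 and 12.3 CPM in gilts P39, P41, P43 and P139. Gilt C128 was the only cyclic library within the pregnant range. The log2 fold change was -1.81 (SE 0.58, edgeR quasi-likelihood test, adjusted p = 0.0753) and without gilt C128 -2.11 (edgeR, adjusted p = 0.0289), neither of which was called. The robust GLM of edgeR called it (log2 fold change -1.82, adjusted p = 0.00165), and DESeq2 did not (adjusted p = 0.0157).

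BV showed the opposite direction, at values below the filter. FGFR3 was at 2.997, 1.14, 1.70 and 1.68 CPM in gilts C40, C42, C78 and C128 and at 6.44, 5.75, 10.8 and 14.0 CPM in gilts P39, P41, P43 and P139. The groups did not overlap, and the pooled ratio was 5.0 (95% interval 3.14 to 8.27, counting error only). With the filter left off, the log2 fold change was 2.25 (SE 0.45, edgeR, adjusted p = 0.0172). The effects of pregnancy on FGFR3 in LE and BV differed by -4.13 on the log2 scale (SE 0.98, edgeR joint fit, adjusted p = 0.0140), which was not called at the limit of 0.01, and without gilt P41 it was (adjusted p = 0.00489). For FGFR2 this difference was -3.34 (SE 0.94, adjusted p = 0.0344).

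Epithelial markers moved in the same direction in BV. Their summed level was 3.69 to 54.9 CPM in cyclic and 187 to 356 CPM in pregnant BV, and none of the 10 was at 0 in every library. As a share of the GE level, these markers were at 1.56% in cyclic and 12.5% in pregnant BV, and FOXA2 at 1.12% and 14.5%. FGFR2 in BV was at 2.75% and 12.2% of its GE level, and FGFR3 at 3.81% and 14.7%. Set against LE instead, the epithelial markers in BV were at 0.949% in cyclic and 8.98% in pregnant gilts. On that scale FGFR2 was at 1.62% and 18.2%, and FGFR3 at 7.02% and 123%. The part of epithelial RNA in the BV values of both receptors was not tested.

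FGFR4 (gene 100127133, chr2:80841536-80853791, minus strand), a receptor best known from the liver, was low everywhere. In S it was at 1.68, 4.01, 29.96 and 4.45 CPM in gilts C40, C42, C78 and C128 and at 5.32, 5.57, 2.04 and 9.59 CPM in gilts P39, P41, P43 and P139. Cyclic gilt C78 alone was far above the rest. S was above GE (7.79-fold, edgeR joint fit, adjusted p = 0.00172), but without gilt P39 this was not called (adjusted p = 0.0113), and no other pair of compartments was separated for FGFR4. Its log2 fold change with pregnancy was -0.81 (SE 0.77) in LE and -0.84 (SE 0.82) in S, neither called. Without gilt C78 the S value turned to 0.74 (edgeR, adjusted p = 0.582), and with the robust GLM of edgeR it was 0.29.

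**Figure D3:**
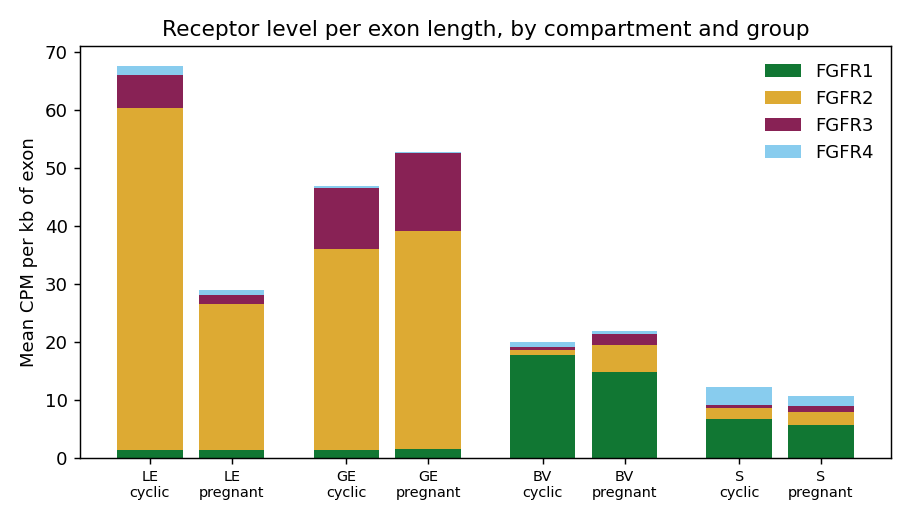
Mean receptor level per exon length (CPM per kb, stacked bars) by compartment in cyclic and pregnant gilts. FGFR2 made up most of the bar in LE and GE and FGFR1 in BV, and the LE bar was 67.6 in cyclic and 28.9 CPM per kb in pregnant gilts.

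Per kb of exon, FGFR2 made up 87.5% of the summed receptor level in cyclic LE and 87.1% in pregnant LE. In GE it made up 74.1% and 71.1%, with FGFR3 at 22.5% and 25.3%. FGFR1 made up 88.4% in cyclic and 67.8% in pregnant BV, and 54.9% and 52.6% in S. In pregnant BV, FGFR2 was at 34.3 CPM in gilt P139 and at most 6.82 CPM in the other libraries. Without that library, an alternative chosen after seeing the data, the FGFR1 share was 79.1% and the FGFR2 share 10.1% in place of 21.0%. The summed epithelial markers in BV had means of 31.1 CPM in cyclic and 241 CPM in pregnant gilts, and their part in these shares was not tested. The summed receptor level in LE was 67.6 CPM per kb in cyclic and 28.9 CPM per kb in pregnant gilts, and in GE it was 46.8 and 52.8 CPM per kb. The cyclic GE value leaned on the low gilt C128. Without it, again chosen after seeing the data, FGFR2 had a mean of 115.8 CPM in cyclic GE in place of 91.79 CPM, against 99.35 CPM in pregnant GE. For FGFR3 these means were 61.62 CPM in place of 49.35 CPM, against 62.76 CPM. Among the ligands, FGF7 made up 96.7% of the summed level per kb in cyclic and 89.8% in pregnant LE, where FGF9 made up 0.865% and 7.75%. In BV, FGF2 made up 52.3% and 41.1%, and in S FGF10 made up 38.4% and 40.3%, with FGF7 at 36.6% and 34.6%. The ligand sum in GE was 15.4 CPM per kb in cyclic and 66.7 CPM per kb in pregnant gilts, with FGF7 at 66.1% and 74.7% of it. These are shares of group means and carry no test. They also depend on the annotated exon lengths. FGFR3 has 4697 bases over 11 transcripts, whereas FGFR1 (3282 bases), FGFR2 (2645 bases) and FGF9 (819 bases) have 1 transcript each.

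**Figure D4:**
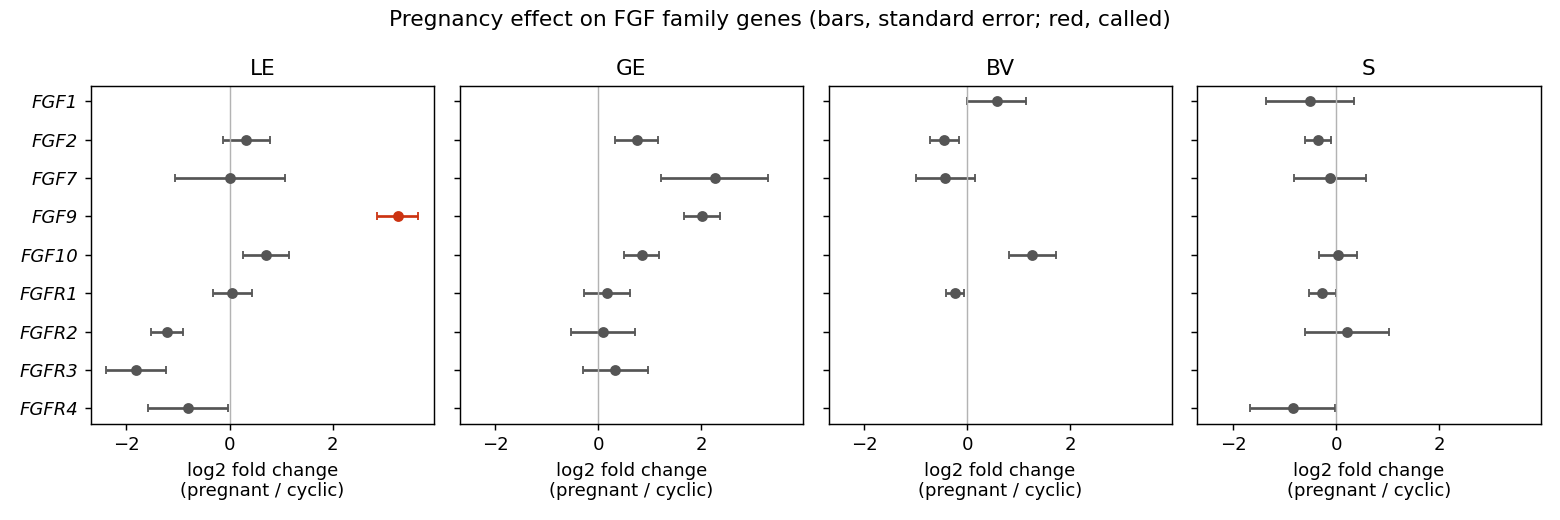
Log2 fold change between pregnant and cyclic gilts (points) with its standard error (bars) for the FGF genes kept by the filter in each compartment, from the edgeR quasi-likelihood test. FGF9 in LE, at 3.27, is the only point called (red), and FGFR2 and FGFR3 lie below 0 in LE.

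Counted over the family, the quasi-likelihood test of edgeR called 1 of 8 members in LE, FGF9, beside 3.32% of all 12002 genes tested. At an unadjusted p under 0.05 it was 3 of 8, beside 26.9% of all genes. The robust GLM called 3 of 8 (11.8% of all genes) and DESeq2 2 of 8 (11.2%). Members whose groups did not overlap were FGF9, higher, and FGFR2, lower, in pregnant LE, beside 19.4% of all genes, and FGF9 in GE, beside 22.9%. In BV and S, where 18.2% and 8.81% of all genes did not overlap, no filtered member was of this kind. In GE, 0 of 7 members were called, beside 0.748% of 11905 genes, with 2 at an unadjusted p under 0.05 (23.0% of all genes), 2 called by the robust GLM (6.66% of all genes) and 1 by DESeq2 (6.64%). In BV, 0 of 5 were called, beside 1.86% of 11096 genes, with 1 at an unadjusted p under 0.05 (28.5%), 0 called by the robust GLM (11.0%) and 0 by DESeq2 (8.5%). In S, 0 of 7 were called, beside 0.293% of 11935 genes, with 0 at an unadjusted p under 0.05 (14.5%), 0 called by the robust GLM (3.16%) and 0 by DESeq2 (2.6%). The members' median log2 fold change was 0.03 (LE), 0.74 (GE), -0.24 (BV) and -0.27 (S), beside medians of all genes between -0.01 and 0.00.

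Between compartments, 35 of 54 comparisons of members were called (9 members and 6 pairs of compartments, edgeR joint fit, adjusted p under 0.01), of which 33 were also called without each gilt in turn. The others were FGFR3 in LE above BV, lost without gilt C40, C42, C78 or P43 (log2 difference 1.66, lowest 1.46 without gilt C42), and FGFR4 in S above GE. The FGFR3 means were 26.8 CPM in LE and 1.88 CPM in BV of cyclic gilts. In pregnant gilts the order was the other way, with 7.51 CPM in LE and 9.23 CPM in BV. The calls were 4 of 9 between LE and GE, where 41.4% of all 13887 genes were called, 7 of 9 between LE and BV (49.2%), 7 of 9 between LE and S (50.6%), 7 of 9 between GE and BV (58.3%), 8 of 9 between GE and S (59.3%) and 2 of 9 between BV and S (7.19%). The last 2 were FGFR1, higher in BV, and FGF10, higher in S. The test of whether the effect of pregnancy differed between the 4 compartments (interaction in the edgeR joint fit) called 0 of 9 members, beside 1.94% of all genes. The members with the lowest adjusted p in this test were FGFR3 (0.05003), FGFR2 (0.114) and FGF7 (0.172).

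Further genes of the pathway were taken from lists of 87 genes, of which 86 had an ID in the annotation and 55 to 57 were tested in each compartment. None of the 12 other secreted ligands was kept by the filter in any compartment. In LE, 2 genes rose and 1 fell of 56 tested, in GE 0 of 55, in BV 1 rose of 56, and in S 1 fell of 57 (edgeR quasi-likelihood test), beside 3.32%, 0.748%, 1.86% and 0.293% of all genes called in either direction. With the robust GLM of edgeR these were 4 up and 6 down in LE, 6 up and 2 down in GE, 3 up and 2 down in BV and 2 up and 2 down in S, beside 11.8%, 6.66%, 11.0% and 3.16% of all genes. The median log2 fold change of the lists together was -0.02 (LE), 0.09 (GE), -0.04 (BV) and -0.04 (S), beside medians of all genes between -0.01 and 0.00.

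In pregnant LE, GAB1, an adaptor that carries receptor signals to the MAPK cascade, rose, with 51.1 to 124 CPM in cyclic and 355 to 409 CPM in pregnant gilts (log2 fold change 2.19, SE 0.28, edgeR, adjusted p = 0.00289). HS6ST1, which adds sulfate to the heparan chains that FGFs bind, rose, with 27.7 to 38.5 CPM in cyclic and 65.2 to 81.8 CPM in pregnant gilts (log2 fold change 1.20, SE 0.17, edgeR, adjusted p = 0.00375). IL17RD, the feedback inhibitor SEF of FGF receptors, fell, with 193 to 755 CPM in cyclic and 46.5 to 134 CPM in pregnant gilts (log2 fold change -2.61, SE 0.47, edgeR, adjusted p = 0.00957). For none of these, which are named because they were called, did the groups overlap, as for 19.4% of all genes in LE. In BV, ETV5, a transcription factor switched on by ERK, rose, with 2.55 to 8.23 CPM in cyclic and 13.03 to 30.7 CPM in pregnant gilts. ETV5 was called by its unadjusted p of 2.03e-04 (log2 fold change 2.10, SE 0.36, edgeR, adjusted p = 0.0164). Epithelial markers moved in the same direction in BV, and their part in this was not tested. In S, GPC4, a heparan sulfate proteoglycan, fell, with 37.9 to 101 CPM in cyclic and 13.3 to 21.98 CPM in pregnant gilts. GPC4 was likewise called by its unadjusted p, 1.27e-04 (log2 fold change -1.83, SE 0.30, edgeR, adjusted p = 0.0891). The calls depended on single libraries. GAB1 was lost without gilt C40, P39 or P43 (adjusted p up to 0.0132), HS6ST1 without gilt C40, C42, P43 or P139 (up to 0.0168) and IL17RD without gilt C40, C42, C78, P39, P43 or P139 (up to 0.0350). By the unadjusted limit used outside LE, ETV5 was lost without gilt C40, C78, C128, P39, P43 or P139 (adjusted p up to 0.0480). By the same limit, GPC4 was lost without gilt C128, P39, P41 or P43 (adjusted p up to 0.261).

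The genes whose levels across the 31 libraries were most like those of each member were ranked by Pearson correlation of log2(CPM + 1), as a description, since the libraries share compartments and gilts. For FGF7 these were ATP11A (r = 0.896), HACD4 (0.869) and LOC100154873 (0.868), and for FGF9 SLCO4C1 (0.927), EFCAB14 (0.926) and SCML1 (0.919). FGF10 was closest to F2RL2 (0.959), DKK1 (0.952), a secreted Wnt inhibitor, and NOVA1 (0.942). FGF2 was closest to SSPN (0.977), PDE1A (0.974) and LIX1L (0.968), and FGF1 to PPP1R3G (0.818), NPY1R (0.813) and PRKG1 (0.810). For FGFR1 these were PODN (0.946), PHTF2 (0.940) and THSD7A (0.940). FGFR2 was closest to TMEM30B (0.949), CXADR (0.946), a junction protein, and DSP (0.943), the desmosome protein desmoplakin. FGFR3 was closest to MGAT4D (0.962), FAM83G (0.931) and LOC102162631 (0.927), and FGFR4 to ADCYAP1R1 (0.754), GFRA2 (0.752) and LOC102165318 (0.744).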

How the data were processed

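Gene expression was measured by low-input RNA-seq of the 4 laser-captured compartments in 4 cyclic and 4 pregnant gilts. The deposited values are raw counts per gene. The authors used Trim Galore for trimming, Hisat2 for alignment to Sscrofa11.1, NuGEN nudup against PCR duplicates and QuasR qCount to count reads per gene, and then removed genes under a CPM limit. Versions and the limit are not given in the sources used here, nor is the handling of strand or of reads shared between genes. Duplicate removal and low input limit the precision of low genes.

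Each library was mapped to its compartment, group and gilt by the labels. Within a compartment, the authors' filtered counts were tested by the edgeR 4.0.16 quasi-likelihood test (R 4.3.3, TMM) with Benjamini-Hochberg adjustment over all genes. The call in LE needed an adjusted p under 0.01, and the other compartments used the largest unadjusted p among the LE calls (3.28e-04) as their limit. This follows the study's rule, so that calls outside LE do not keep a false discovery rate of 1%, at which 0 genes were called there. Tests of compartments and of interactions used 1 joint fit of the 31 libraries and 13887 genes with gilt as a block. Libraries of 1 gilt come from the same animal. Their deviations from group means had a median correlation of 0.157 over 45 pairs (-0.163 to 0.351), against -0.0465 over 135 pairs of other gilts of the group. Deviations from a group mean cancel out within the group, which lowers the second value, so that it is not an independent reference. The robust GLM of edgeR, DESeq2 1.42.0, other normalizations and filters, and each library left out were alternatives. Outside LE, the robust GLM and DESeq2 took their limits from their own LE calls (unadjusted p of 0.00114 and 0.00112). Other normalizations and filters did likewise, and fits with a library left out kept 3.28e-04. Genes outside the filtered tables were fitted with the filter left off. Ratios of pooled counts carry exact binomial intervals, for counting error only. The fits were tested on simulated data.

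The 10 members and all gene and marker lists were chosen with earlier results of these data known. All members are named. Of the pathway lists, genes called in a compartment are named, up to 6 per compartment by smallest p. The 3 most correlated genes are named for each member with a mean of at least 5 CPM in 1 group. Levels per kb used the union of annotated exons.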

Additional observations from a re-analysis of the deposited data

Results flagged for a closer look

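In 7 of 65 groups of 4 libraries, 1 library of a member lay apart from the other 3 by Dixon's test at its 95% limit. The nominal rate of about 1 in 20 assumes independent groups of normally distributed values. These groups share gilts and libraries, and some rest on few counts, so that no excess can be read from the 7. FGF7 in cyclic BV was at 62.89 CPM in gilt C78, with the next library at 13.63 CPM. FGFR1 in cyclic GE was at 7.13 CPM in gilt C128, against at most 3.919 CPM in the others. FGFR1 in pregnant S was at 29.97 CPM in gilt P43, with the next at 14.73 CPM. FGFR2 in pregnant BV was at 34.26 CPM in gilt P139, with the next at 6.821 CPM. FGFR3 in cyclic GE was at 12.53 CPM in gilt C128, the lowest, with the next at 59.14 CPM. FGFR3 in pregnant S was at 14.08 CPM in gilt P41, with the next at 1.703 CPM. FGFR4 in cyclic S was at 29.96 CPM in gilt C78, with the next at 4.446 CPM. Gilt C128 appears among these for FGFR1 and FGFR3 in GE, where it was also the lowest cyclic library for FGF7 and FGFR2.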

How the results depend on the processing

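The number of FGF genes called in LE, 1 with the quasi-likelihood test, was 3 with the robust GLM of edgeR (FGF9, FGFR2 and FGFR3) and 2 with DESeq2 (FGF9 and FGFR2). At a false discovery rate of 5% it was 2 (FGF9 and FGFR2), beside 1288 of all 12002 genes. When each library was left out it was 0 to 2, beside 101 to 439 of all genes. In GE, it was 0 with the quasi-likelihood test and 2 with the robust GLM at the limit from its own LE calls (FGF7 and FGF9). It was 1 with DESeq2 and 1 at a false discovery rate of 5% (both FGF9), the latter beside 221 of all 11905 genes. When each library was left out it was 0 to 1, beside 38 to 110 of all genes. The cause of these differences was not tested. In BV and S no alternative called a member, beside 958 of 11096 and 4 of 11935 genes at a false discovery rate of 5%. Between compartments, 35 of 54 comparisons were called. With genes detectable in all 4 compartments, 18 of 24 were called, the number being lower because fewer members were tested. The share of all genes called in that setting is not given here. Without the gilt as a replicate block, 35 comparisons were again called, and none of the 59 results fitted without the block changed its side of the threshold. Of 1125 values of single members under alternatives, 1103 kept their direction and side of the threshold or were uncalled throughout, 16 became called and 6 were no longer called, while 39 values of 16 uncalled results, such as FGF7 in LE, changed sign. FGF18 and other genes at a few counts per library are limited by depth, and a difference in them that was not called is not thereby absent. With 3 or 4 gilts per group, 1 library can decide a call.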

Other observations

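Some genes of the pathway lists had differences between pregnant and cyclic gilts that were not called by the edgeR quasi-likelihood test, and the following were chosen after their values were seen. DUSP4, a phosphatase that acts on ERK, was at 1.34 to 21.4 CPM in cyclic and 50.6 to 81.6 CPM in pregnant LE (log2 fold change 3.15, edgeR, adjusted p = 0.0254), and at 0.216 to 5.30 CPM in cyclic and 11.01 to 16.1 CPM in pregnant GE (log2 fold change 2.94, edgeR, adjusted p = 0.0944). ETV1, a transcription factor related to ETV5, was at 0.648 to 22.4 CPM in cyclic and 60.8 to 119.5 CPM in pregnant GE (log2 fold change 2.93, edgeR, adjusted p = 0.0870). SPRY3, of the Sprouty family of inhibitors, was at 10.4 to 45.4 CPM in cyclic and 2.99 to 7.87 CPM in pregnant GE (log2 fold change -2.21, edgeR, adjusted p = 0.0885). SULF2, which removes sulfate from heparan chains, was at 35.1 to 41.2 CPM in cyclic and 11.7 to 21.1 CPM in pregnant LE (log2 fold change -1.14, edgeR, adjusted p = 0.0121), and HS6ST1, which adds it, was at 9.51 to 16.1 CPM in cyclic and 23.6 to 77.6 CPM in pregnant GE (log2 fold change 1.86, edgeR, adjusted p = 0.0558). KL, the coreceptor klotho, was at 23.1 to 43.4 CPM in cyclic and 10.3 to 21.4 CPM in pregnant S (log2 fold change -1.31, edgeR, adjusted p = 0.114). In none of these did the groups overlap, as for 19.4% of all genes in LE, 22.9% in GE and 8.81% in S. Since the genes were chosen by their values, these shares are no reference for them, and no excess can be read from this.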
